A study of Gossypium hirsutum with 6 samples.

Results

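The most abundant leaf transcripts of upland cotton (Gossypium hirsutum) are described here. They are the genes with a chromosome label in their identifier and a mean of 1000 FPKM or more over 6 libraries, outside one stretch of chromosome label D10 that the rule leaves out. FPKM is the number of fragments per kilobase of transcript and library size (mapped fragments), so levels can be compared between genes. The rule gave 88 of the 65126 identifiers in the table. Their high level was what chose them and is no finding. The rule did not use the contrast between the genotypes, but a member could pass through 1 genotype alone. Gh_D07G2244 (mean of 1204 FPKM in wild type, 922 in virescent), Gh_A07G0232 (1074, 974) and Gh_D05G3725 (1073, 951) passed through the wild type only. No member passed through the virescent libraries only.

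RNA was sequenced from the first true leaf of green wild-type plants and of the virescent mutant of the line Yt30, a male-sterile line of cotton, in 3 libraries per genotype. The genotype labels read msmsv1v1 for the wild type and MSmsv1v1 for the virescent plants, so as written the groups share the v1 alleles and differ at MS. No treatment and no plant age beyond the leaf stage is given, and the labels do not say whether the libraries came from separate plants. The p-values therefore measure spread among the 6 libraries only, and that spread may be technical.

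Virescent plants have pale, yellowish young leaves that green as they grow, because chloroplasts form late. In green leaves in general, a small number of nuclear genes for photosynthesis, such as those of the small subunit of Rubisco and of the chlorophyll-binding antenna proteins, give a large part of the messenger RNA. Upland cotton is an allotetraploid, and many of its genes exist as an A and a D copy with near-identical sequence. The table does not pair its identifiers with gene names, and 0 of the 88 members matched the RefSeq table of assembly Gossypium_hirsutum_v2.1, so no function is assigned to a member and leaf markers could not be checked. Whether reads of near-identical copies were split between members is not given in the sources used here, so the level of a single member is uncertain in this respect.

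The summed FPKM of a library lay between 1019041 and 1068010, and it was higher in every virescent library than in every wild-type library. The depth of the libraries is unknown. Virescent 2 was the lowest of the 6 libraries in 36 of the 88 members and the highest in 0. Virescent 3 was the highest in 32 and the lowest in 19. Wild type 2 was the highest in 21 and the lowest in 0. The main shares, the limma calls, the median change and the changes of the members named by rule were also computed without single libraries. The shares of other subsets and the ratios between members were not.

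The 88 members held a smaller share of the summed FPKM in virescent leaves. The share was 27.8%, 28.1% and 27.3% in wild type 1, 2 and 3, and 24.7%, 22.5% and 25.6% in virescent 1, 2 and 3. All wild-type libraries thus lay above all virescent libraries, with virescent 2 lowest. The mean was 27.7% ± 0.4 (SD, n = 3) in wild-type leaves and 24.3% ± 1.6 (SD, n = 3) in the virescent libraries, so that the genotypes differed by -3.47 percentage points (exact two-sided permutation test, p = 0.1, the smallest that 3 against 3 libraries allow). Without virescent 2 the difference was -2.59 points. The members together summed to 287272 ± 4312 FPKM (SD, n = 3) in wild-type leaves and 258062 ± 18205 FPKM (SD, n = 3) in virescent leaves, while all other identifiers summed to 748597 ± 13508 and 805365 ± 13833 FPKM (SD, n = 3). FPKM is relative to each library's mapped fragments, so a lower share of the members goes with a higher share of the remaining genes by construction. In bulk leaf RNA, fewer cells of a type and less RNA per cell cannot be told apart.

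**Figure D1:**
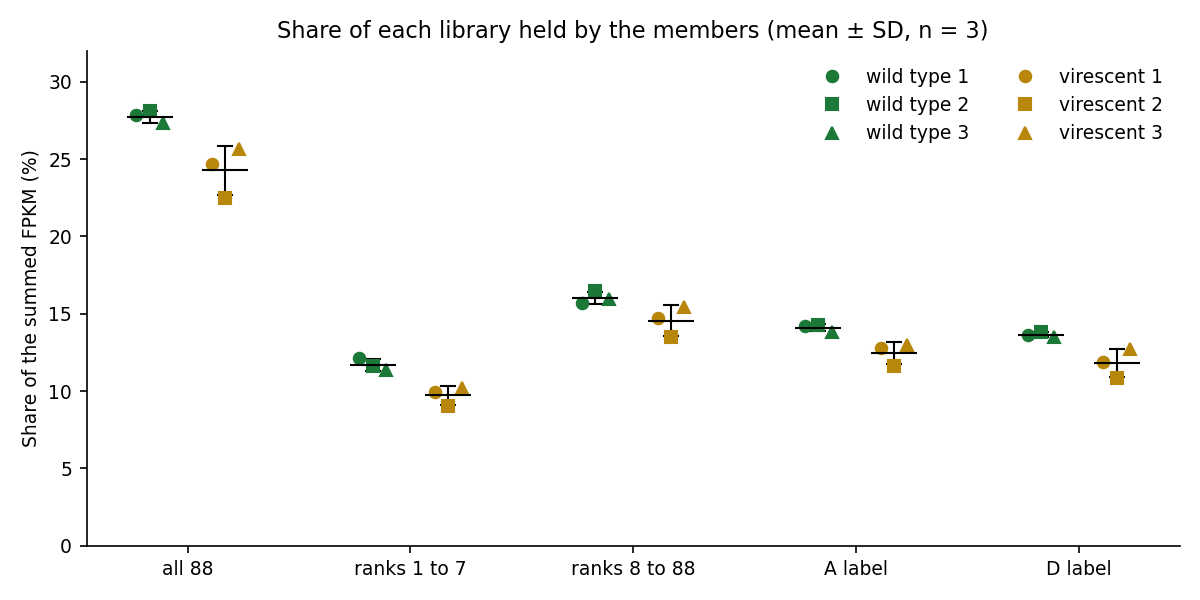
Share of the summed FPKM of each library (y axis, percent) held by all 88 members, by the members ranked 1 to 7, by those ranked below them, and by members with an A or a D label. Points are libraries, bars are mean ± SD (n = 3 per genotype). The wild-type libraries lie between 27.3% and 28.1% for all members and the virescent libraries between 22.5% and 25.6%.

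A few members carried much of this share. Member means ranged from 1012 to 23375 FPKM, a 23.1-fold range, with a median of 1663 FPKM. Means of 10000 FPKM or more were found in 6 members, 5000 FPKM or more in 9, and 2000 FPKM or more in 33. The same 7 members held the first 7 places among the members in all 6 libraries. These 7 together took 11.7% ± 0.4 (SD, n = 3) of the summed FPKM in wild-type leaves and 9.72% ± 0.62 (SD, n = 3) in virescent leaves, and the genotypes did not overlap (exact two-sided permutation p = 0.1). They accounted for 57.4% of the points that the members lost. The other members held 16.0% ± 0.4 and 14.5% ± 1.0 (SD, n = 3), again without overlap (exact two-sided permutation p = 0.1). The members ranked 11 and below overlapped, at 14.1% ± 0.6 and 13.2% ± 0.9 (SD, n = 3, exact two-sided permutation p = 0.2). From the most abundant member downward, 50% of the members' own sum was reached with 10, 12 and 11 members in wild type 1, 2 and 3, and with 13 members in every virescent library.

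**Figure D2:**
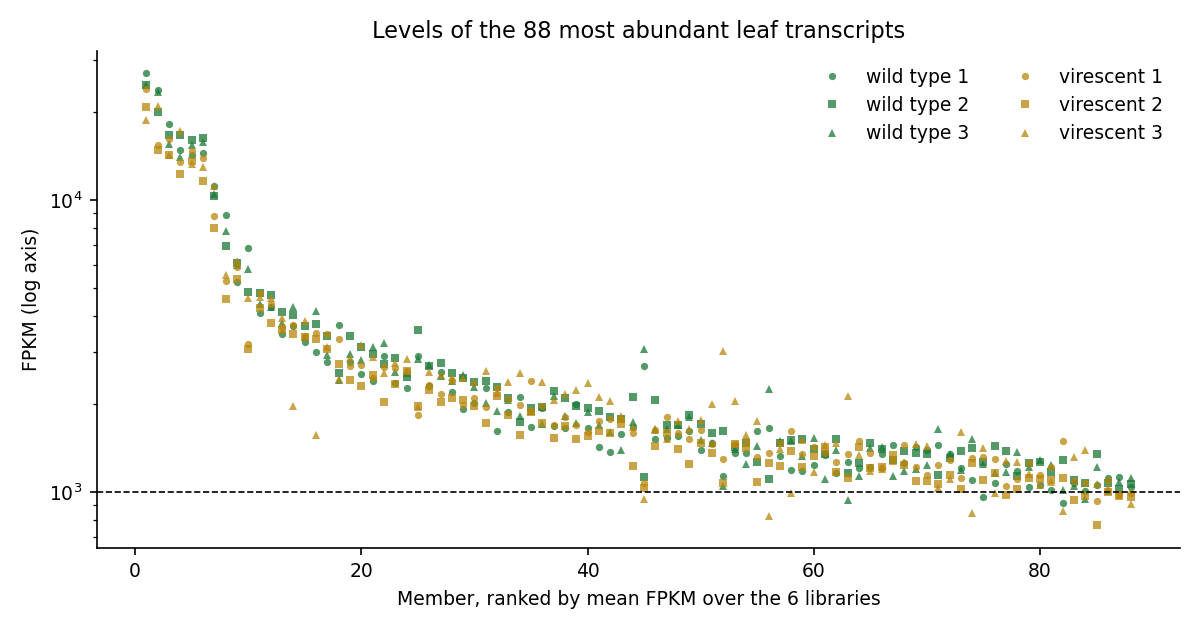
FPKM of each member (y axis, log scale) in each of the 6 libraries, with members ranked by their mean (x axis). The dashed line marks 1000 FPKM. Levels fall steeply over the first 10 members, from a mean of 23375 to 4722 FPKM, and slowly after that, and some members have single libraries far from the rest.

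The leading member was Gh_A07G2172, on chromosome label A07. Its level was 27104, 24791 and 24809 FPKM in wild type 1, 2 and 3, and 23999, 20774 and 18772 FPKM in virescent 1, 2 and 3. Every virescent library was below every wild-type library, and virescent 3 was lowest. It alone took 2.47% ± 0.16 (SD, n = 3) of the summed FPKM in wild-type leaves and 1.99% ± 0.24 (SD, n = 3) in virescent leaves (exact two-sided permutation p = 0.1). Its log2 change in FPKM + 1 from wild type to virescent was -0.28 ± 0.12 (SE), which missed the threshold of 0.05 after Benjamini-Hochberg adjustment over all tested genes (limma adjusted p = 0.171).

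The second member, Gh_D11G1671 on D11, had the largest loss of share. Its level was 23832, 20012 and 23307 FPKM in wild-type leaves and 15372, 14839 and 20977 FPKM in virescent 1, 2 and 3. Virescent 3 lay within the wild-type range, so the genotypes overlapped, and the share went from 2.16% ± 0.21 to 1.60% ± 0.32 (SD, n = 3). The log2 change of -0.41 ± 0.15 (SE) missed the threshold (limma adjusted p = 0.134) and passed it without virescent 3, at -0.56 (limma adjusted p = 0.0390). In virescent 3 this transcript took the first place, ahead of Gh_A07G2172.

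The next 3 members overlapped between the genotypes. Gh_D07G1759, on D07, was at 18137, 16675 and 15536 FPKM in wild-type leaves and at 16094, 14224 and 14223 FPKM in virescent leaves. Gh_A10G0361, on A10, was at 14812, 16658 and 14019 FPKM against 13419, 12221 and 17192 FPKM, with virescent 3 the highest of all 6 libraries. Gh_A05G1261, on A05, was at 14240, 16018 and 15430 FPKM against 14693, 13611 and 13278 FPKM. The limma 95% intervals of their log2 changes all included 0. For Gh_D07G1759 the change was -0.18 (interval -0.43 to 0.08), for Gh_A10G0361 -0.10 (-0.44 to 0.24) and for Gh_A05G1261 -0.14 (-0.37 to 0.10). The sign for Gh_A10G0361 turned without virescent 2, to 0.0062.

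Few single members differed between the genotypes beyond the spread of their libraries. By limma, fitted on all 43104 genes with at least 1 FPKM in at least 3 libraries, which all 88 members passed, 2 of the 88 were lower in virescent leaves and 0 were higher. Over all tested genes 10.3% were called, 4.05% as lower and 6.3% as higher. At an unadjusted p under 0.05, 8 members were lower and 1 was higher, where 11.1% and 17.5% of all tested genes were. The genotypes did not overlap in 16 members, or 18.2%, against 33.7% of all tested genes. Of these, 12 were lower, where 13.2% of all tested genes were, and 4 were higher, where 20.5% were. The 12 include Gh_A07G0232 and Gh_D05G3725, and the 8 at an unadjusted p include Gh_D07G2244. These members reached 1000 FPKM through the wild-type mean only, which favours a lower virescent level. The log2 change was negative in 57 members and positive in 31, with a median of -0.07 against 0.05 over all tested genes and 0.07 over the 252 chromosome-labelled genes of 300 to below 1000 FPKM. The median turned to 0.01 without virescent 2, with 39 negative and 49 positive members. In that refit the median was 0.05 over all tested genes and 0.11 over the genes of 300 to below 1000 FPKM. Without wild type 2 there were 47 negative and 41 positive members, and without virescent 3 there were 63 and 25. After scaling by the median ratio 68 were negative and 20 positive, with a median of -0.13. That scaling moved the other medians as well, to -7.4e-05 over all tested genes and 0.0052 over the genes of 300 to below 1000 FPKM.

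The limma 95% intervals give a range for the change of each member taken singly. They are not adjusted for the number of members and take the scaling of the FPKM values as given. For 83 of the 88 members (94.3%) the interval of the log2 change lay within 1 either way, that is within a 2-fold change, against 81.2% of all tested genes. The standard error had a median of 0.14 and ranged from 0.10 to 0.37. The other 5 members, picked out by these intervals after their values were seen, were Gh_A10G1331, Gh_A11G1510, Gh_A06G1269, Gh_A01G1361 and Gh_D10G2299. The spread within the genotypes was also modest, with a median coefficient of variation of 11.6% in the members, 12.1% in the genes of 300 to below 1000 FPKM and 16.5% in all tested genes. The median member differed 1.39-fold between its highest and its lowest library, and 7 members differed 2-fold or more.

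**Figure D3:**
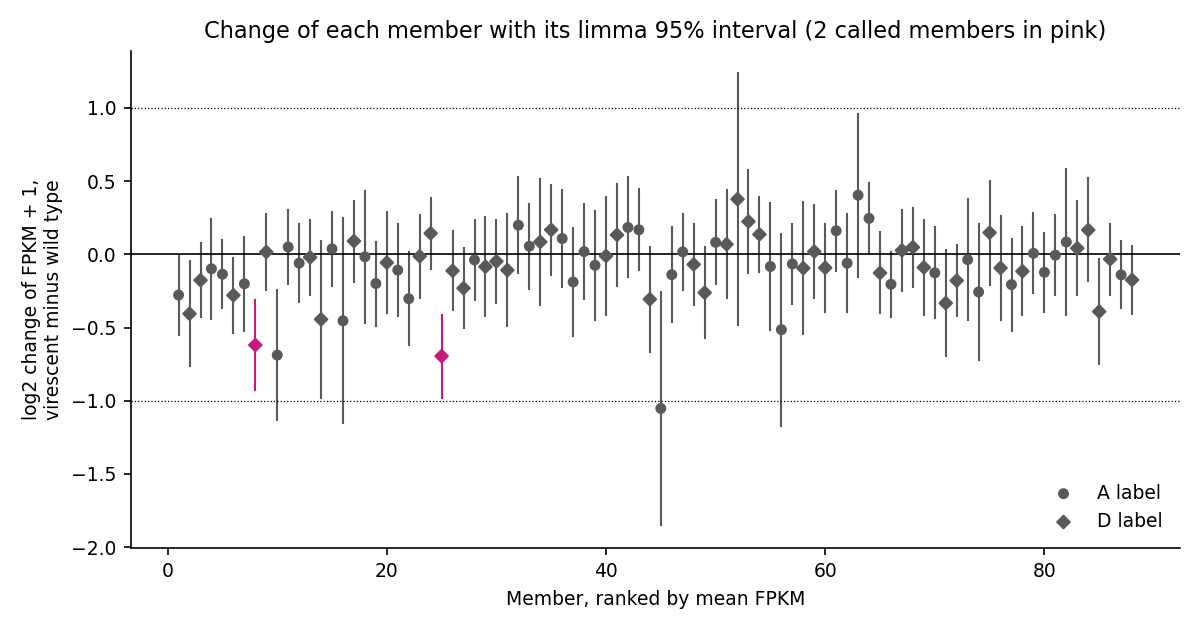
Fitted log2 change of FPKM + 1 from wild type to virescent leaves (y axis) with its limma 95% interval, for each member in order of mean FPKM (x axis). Circles carry an A label and diamonds a D label, and the 2 called members are pink. Dotted lines mark a 2-fold change, and 83 of the 88 intervals stay between them.

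The member with the clearest fall was Gh_D06G2351 on D06, the 25th by mean level. It was at 2918, 3578 and 2845 FPKM in wild type 1, 2 and 3 and at 1826, 1964 and 1951 FPKM in virescent 1, 2 and 3. The virescent libraries lay close together and below the lowest wild-type library. The mean fell from 3114 ± 404 FPKM to 1914 ± 76 FPKM (SD, n = 3). On the log2 scale it changed by -0.70 ± 0.12 (SE, adjusted p = 0.0173 by limma). That p rose past the threshold when wild type 1 was left out (0.0616), when virescent 1 was (0.0617) and with the replicate number as a block (0.0640).

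The other called member was Gh_D11G1672 on D11, the 8th by mean level, whose number adjoins that of Gh_D11G1671. It was at 8894, 6934 and 7822 FPKM in wild-type leaves and at 5258, 4572 and 5537 FPKM in virescent leaves, without overlap. Its mean fell from 7883 ± 981 FPKM to 5122 ± 497 FPKM (SD, n = 3), by -0.62 ± 0.13 (SE) on the log2 scale, with a limma adjusted p of 0.0286. The adjusted p rose to 0.0993 without wild type 1, 0.0913 without wild type 3, 0.0790 without virescent 1, 0.0757 without virescent 2 and 0.0705 with the replicate number as a block. With both number-2 libraries left out, neither called member passed the threshold, at limma adjusted p = 0.0675 for Gh_D06G2351 and 0.0719 for Gh_D11G1672. Without a filter on low values neither was called, at limma adjusted p = 0.131 for Gh_D06G2351 and 0.332 for Gh_D11G1672. Together the 2 called members took 1.06% ± 0.08 (SD, n = 3) of the summed FPKM in wild-type leaves and 0.661% ± 0.043 (SD, n = 3) in virescent leaves. The members that were not called still held less in every virescent library, at 26.7% ± 0.4 against 23.6% ± 1.6 (SD, n = 3, exact two-sided permutation p = 0.1).

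The largest negative change belonged to Gh_A10G1331 on A10, which was not called. It was at 2694, 1122 and 3090 FPKM in wild type 1, 2 and 3 and at 1070, 1033 and 946 FPKM in virescent 1, 2 and 3. Wild type 2 lay next to the virescent libraries, far below the other wild-type libraries. The log2 change was -1.05 ± 0.34 (SE, limma adjusted p = 0.0918), and without wild type 2 it was -1.51 and passed the threshold (limma adjusted p = 0.00369). The largest positive change was that of Gh_A06G1466 on A06, at 1269, 1161 and 937 FPKM in wild-type leaves and 1349, 1113 and 2134 FPKM in virescent leaves. Virescent 3 stood apart from the other 5 libraries. The fitted change of 0.40 ± 0.24 on the log2 scale (SE, limma adjusted p = 0.311) was 0.14 without virescent 3. The 1 member with a positive change at an unadjusted p under 0.05 was Gh_A09G0764 on A09, named after its values were seen. It was at 1208, 1250 and 1131 FPKM against 1498, 1418 and 1341 FPKM, without overlap, with a log2 change of 0.25 (limma adjusted p = 0.170).

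Members with adjoining numbers offered a comparison within the set, chosen after their values were seen. The pair Gh_D11G1671 and Gh_D11G1672 on D11 and the pair Gh_A11G1509 and Gh_A11G1510 on A11 stood among the first 10 members, with the lower number the more abundant in each pair. These 4 members took 4.51% ± 0.46 (SD, n = 3) of the summed FPKM in wild-type leaves and 3.30% ± 0.58 (SD, n = 3) in virescent leaves, without overlap (exact two-sided permutation p = 0.1). The loss of 1.21 points was 34.8% of the net loss of all members, and it is a description because the pairs were picked in part for it.

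Within the A11 pair the members moved unequally. Gh_A11G1509 was at 11135, 10272 and 10428 FPKM in wild-type leaves and at 8767, 8018 and 11174 FPKM in virescent leaves, with virescent 3 the highest of the 6. Gh_A11G1510 was at 6825, 4829 and 5781 FPKM in wild-type leaves and at 3206, 3091 and 4597 FPKM in virescent leaves, without overlap, although its log2 change of -0.69 ± 0.19 (SE) missed the threshold (limma adjusted p = 0.0593). The ratio of Gh_A11G1509 to Gh_A11G1510 was 1.63, 2.13 and 1.80 in wild-type leaves and 2.73, 2.59 and 2.43 in virescent leaves, without overlap (exact two-sided permutation p = 0.1, n = 3 per genotype).

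On D11 the ratio of Gh_D11G1671 to Gh_D11G1672 was 2.68, 2.89 and 2.98 in wild-type leaves and 2.92, 3.25 and 3.79 in virescent leaves. Here the genotypes overlapped (exact two-sided permutation p = 0.2, n = 3 per genotype), and virescent 3 had the highest ratio. Of the other 3 member pairs whose numbers lay within 5 of each other, 1 gave ratios without overlap. The ratio of Gh_D07G1659 to Gh_D07G1663 was 0.619 ± 0.031 in wild-type leaves and 0.537 ± 0.022 in virescent leaves (SD, n = 3, exact two-sided permutation p = 0.1). With 3 against 3 libraries the smallest exact two-sided permutation p is 0.1. None of these 5 ratios could therefore pass the threshold of 0.05, with or without adjustment for their number.

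**Figure D4:**
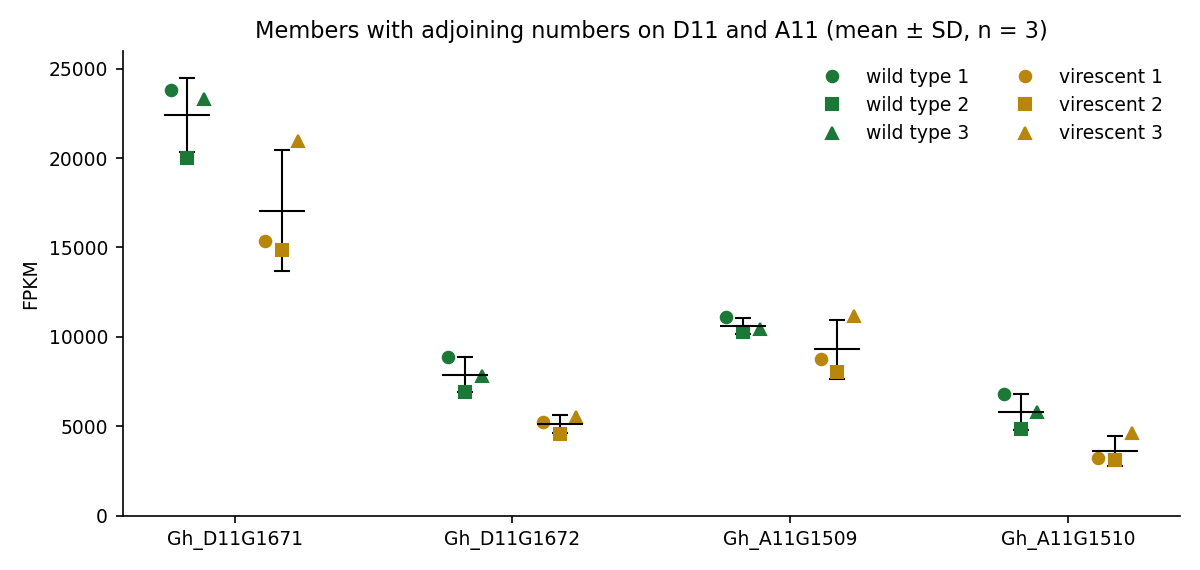
FPKM (y axis) of the 4 members with adjoining numbers on D11 and A11 in each library, with mean ± SD (n = 3 per genotype). Gh_D11G1672 and Gh_A11G1510 lie lower in every virescent library than in every wild-type library, whereas virescent 3 reaches the wild-type levels in Gh_D11G1671 and Gh_A11G1509.

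The A and D labels divided the members almost evenly. An A label was carried by 43 members and a D label by 45, so that 48.9% had an A label, against 48.6% of all chromosome-labelled identifiers and 47.6% of the genes of 300 to below 1000 FPKM. The A members took 14.1% ± 0.2 (SD, n = 3) of the summed FPKM in wild-type leaves and 12.5% ± 0.7 (SD, n = 3) in virescent leaves. The D members held 13.6% ± 0.2 and 11.8% ± 0.9 (SD, n = 3). Neither label overlapped between the genotypes (exact two-sided permutation p = 0.1 for each). The median log2 change was -0.07 in both labels. The genotypes did not overlap in 8 A members (18.6%) and 8 D members (17.8%), against 33.7% of all tested genes. Both called members carried a D label, and 0 of the A members were called by limma, where 10.3% of all tested genes were. At an unadjusted limma p under 0.05 stood 4 of the A members and 5 of the D members, against 28.6% of all tested genes.

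The balance of the labels was nearly even in both genotypes. The D members held 49.0%, 49.1% and 49.3% of the members' own sum in wild type 1, 2 and 3 and 48.2%, 48.2% and 49.5% in virescent 1, 2 and 3 (exact two-sided permutation p = 0.4, n = 3 per genotype). Virescent 3 exceeded the wild type, and the other virescent libraries were below it. The difference of -0.51 points depended on the threshold, since among members of 2000 FPKM or more it was -1.18 points without overlap (exact two-sided permutation p = 0.1). Among the chromosome-labelled identifiers that are not members the D share was higher in every library, at 51.9% ± 0.1 in wild-type leaves and 51.6% ± 0.1 in virescent leaves (SD, n = 3). This gap depends on 1 excluded identifier. Gh_D10G0369, at a mean of 12183 FPKM, would have been the seventh member had the stretch on D10 been included. With it, in a calculation added after the data were seen, the D share of the members was 51.3%, 51.3% and 51.4% in wild-type leaves and 50.3%, 50.3% and 51.7% in virescent leaves. That of the chromosome-labelled genes below 1000 FPKM was then between 50.7% and 51.1% over the 6 libraries. Compared within each library, the members lay above them in 4 libraries and below them in virescent 1 and 2.

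Members were found under 25 of the 26 chromosome labels, all but D03. Chromosome numbers 5, 7 and 11, singled out after the counts were seen, held 44 of the 88 members, against 29.9% of the chromosome-labelled identifiers and 27.0% of the genes of 300 to below 1000 FPKM. Chromosome 7 had 9 members with an A label and 9 with a D label, chromosome 5 had 8 and 9, and chromosome 11 had 4 and 5. The 44 members took 18.9% ± 0.3 (SD, n = 3) of the summed FPKM in wild-type leaves and 16.1% ± 1.0 (SD, n = 3) in virescent leaves, without overlap (exact two-sided permutation p = 0.1). The remaining members held 8.88% ± 0.27 and 8.18% ± 0.63 (SD, n = 3), and these overlapped (exact two-sided permutation p = 0.3). All of the first 10 members except Gh_A10G0361 carry one of these chromosome numbers. The split by chromosome number therefore largely repeats the split by rank and cannot be told apart from it.

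Virescent 3 lay far from virescent 1 and 2 in some members. Its ratio to the mean of the other virescent libraries had a median of 1.12 over the members and ranged from 0.458 to 2.56. It was 1.5 or more in 3 members and correspondingly low in 6. The like ratio is not given for other libraries or for other genes. It therefore does not show that virescent 3 deviated more than other libraries do. The most variable member, Gh_D10G2299 on D10, was at 1136, 1615 and 1047 FPKM in wild-type leaves and at 1292, 1074 and 3032 FPKM in virescent 1, 2 and 3. Its coefficient of variation within the genotypes was 51.5%. The fitted change of 0.38 ± 0.37 on the log2 scale (SE, limma adjusted p = 0.548) turned to -0.08 without virescent 3.

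In the opposite direction stood Gh_D06G1593 on D06 and Gh_A06G1269 on A06, named after their values were seen. Gh_D06G1593 was at 3692, 4030 and 4295 FPKM in wild-type leaves and at 3713, 3469 and 1971 FPKM in virescent 1, 2 and 3. Gh_A06G1269 was at 3007, 3741 and 4157 FPKM in wild-type leaves and at 3492, 3334 and 1562 FPKM in virescent leaves. Both were low in virescent 3 alone. The most even member was Gh_A04G0007 on A04, at 1351, 1397 and 1423 FPKM in wild-type leaves and 1209, 1212 and 1198 FPKM in virescent leaves. Its coefficient of variation within the genotypes was 2.03%, and its genotypes did not overlap. The log2 change of -0.20 ± 0.10 (SE) missed the threshold (limma adjusted p = 0.207). What lies behind these deviations of virescent 3 was not tested.

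**Figure D5:**
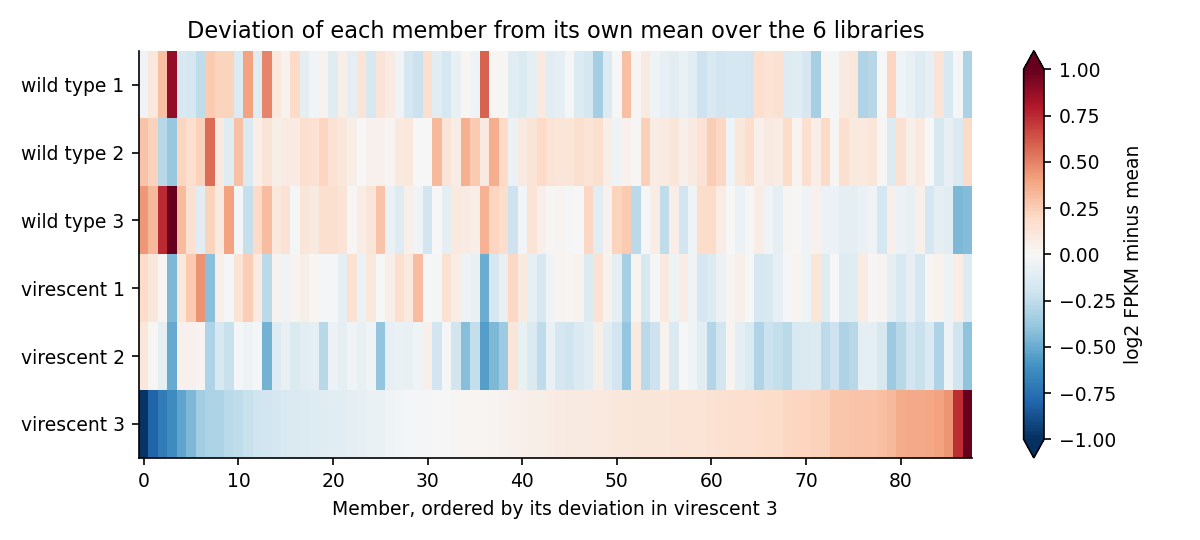
Deviation of each member from its own mean over the 6 libraries (colour, log2 FPKM, red higher and blue lower), with members (x axis) ordered by their deviation in virescent 3 and 1 row per library. Virescent 3 holds strong deviations in both directions, virescent 2 is mostly blue and wild type 2 mostly red.

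At the edge of the set the values were continuous. The lowest member was Gh_D05G3725 on D05, at 1036, 1066 and 1117 FPKM in wild-type leaves and 987, 957 and 909 FPKM in virescent leaves. The gene just outside, Gh_A08G1300 on A08, had a mean of 995 FPKM, with libraries between 760 FPKM in wild type 1 and 1325 FPKM in virescent 3. Because the threshold was set on the mean, 73 of the 88 members reached 1000 FPKM in all 6 libraries, and between 80 and 88 did so in a single library.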

How the data were processed

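The authors deposited 1 table of FPKM values per gene and library, per the file headers, rounded to 2 decimals. The sources used here do not give the aligner, the counter or the annotation, and the submitters' processing notes name only a mouse build. RNA came from leaves, per the labels' protocols, and the genotype label set the groups. The 88 members and the named genes were chosen with earlier results of these data known. By the rule for names these were the 5 highest means, the genes at both sides of the threshold, the called members, the extremes of log2 change and of variation. Others are marked as named later. Genes with at least 1 FPKM in at least 3 libraries were tested as log2(FPKM + 1) with limma 3.58.1 in R 4.3.3 (genotype only, empirical Bayes with trend, Benjamini-Hochberg over all 43104 genes, threshold 0.05); fold changes on this scale are slightly understated. Shares per library were compared with exact permutation tests in SciPy 1.17.1. Shares are of summed FPKM, not of RNA mass. Without depth, no counting interval is given. Alternatives were other pseudocounts, filters, scalings, a fit without trend, a replicate block, other member thresholds, another denominator and leaving out libraries.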

Additional observations from a re-analysis of the deposited data

How the results depend on the processing

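The shares held by the members, by either label, by the leading member and by the first 10 kept their sign under every alternative run. With 1 library left out this was fixed in advance, because every wild-type library lay above every virescent library in each of these shares. Leaving out 1 library gave differences of -4.16 to -2.59 points for all members, -1.89 to -1.24 for the A label, -2.27 to -1.34 for the D label, -0.61 to -0.36 for the leading member, -2.82 to -2.08 for the first 10 and -0.94 to -0.29 for the D share of the members' own sum, which at a member threshold of 2000 FPKM was -1.18 points. The count of called members was less stable. It was 0 without a filter and 0 with the replicate block, 1 with both number-2 libraries left out (added after the data were seen; this was Gh_A10G1331, not one of the 2 reported), and 0 to 4 with 1 library left out, all of them lower in virescent leaves. At a threshold of 500 FPKM, 4 were called, of which 2 were higher, and the number of genes at that threshold is not given here. The share of all tested genes called in each refit is not given here either. A change of the count in the members thus cannot be told apart from one over all genes. The cause was not tested. The median log2 change of the members was -0.10 to 0.01 with 1 library left out. In each of these refits it lay below the median over all tested genes. Of 168 refits of the 12 named members, 3 turned the sign, all in members not called, namely Gh_A10G0361 without virescent 2 (0.0062) and without both number-2 libraries (0.076), and Gh_D10G2299 without virescent 3. With 1 library left out, Gh_A10G0361 changed by -0.24 to 0.0062 and Gh_D10G2299 by -0.077 to 0.67. Deviations of same-numbered libraries correlated across genes at 0.0812, -0.278 and -0.242, and number 2 and number 3 did not correlate best with their own number, so the replicate block rests on a number alone. With balanced pairs it cannot change the difference in share, -3.47 points for all members, and its exact p was 0.25, the smallest that 3 pairs allow. What depth limits cannot be said, since the files give no depth.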

Other observations

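Among identifiers of 1000 FPKM or more, 4 carried the prefix BGI_novel and so were not members. BGI_novel_G003661 was at 1155, 1519 and 1742 FPKM in wild type 1, 2 and 3 and at 2234, 3228 and 1245 FPKM in virescent 1, 2 and 3. BGI_novel_G001236 was at 731, 835 and 1132 FPKM and at 1472, 2132 and 765 FPKM in the same order. Both were highest in virescent 2, which was the highest library for 0 of the 88 members, and both had virescent 3 within the wild-type range. BGI_novel_G005184, at 2316, 2198 and 2053 FPKM in the wild type and 1624, 1528 and 2151 FPKM in virescent leaves, had its lowest value in virescent 2. Together with these 4 and the excluded identifier on D10, all 93 identifiers of 1000 FPKM or more held 29.7%, 29.9% and 29.1% of the summed FPKM in wild-type leaves and 26.3%, 24.2% and 27.3% in virescent leaves, a calculation added after the data were seen.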
